A study of Mus musculus with 3530 samples.

Results

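The genes described here encode the subunits of voltage-gated sodium channels (symbols Scn followed by a number and a or b), of voltage-gated calcium channels (Cacna, Cacnb and Cacng) and of the hyperpolarization-activated HCN channels (Hcn and a number). They were taken by symbol from a table of read counts per gene, and 40 of its 23354 genes fell in the set: 8 sodium channel pores, 4 sodium channel beta subunits, 9 calcium channel pores, 4 alpha2delta subunits, 4 calcium channel beta subunits, 7 gamma subunits and 4 HCN channels. The rule read symbols only and no measured values, but it was chosen with earlier results of these data known.

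Voltage-gated sodium channels carry the upstroke of the action potential, voltage-gated calcium channels turn depolarization into calcium entry for transmitter release, dendritic signalling and gene regulation, and HCN channels pass an inward current when the membrane is hyperpolarized. In many calcium channels a pore-forming alpha1 subunit assembles with an alpha2delta and a beta subunit. Most gamma subunits made by cortical neurons are better known as TARPs, which traffic and tune AMPA-type glutamate receptors. Neuron types of the cortex are known to differ in which pore and auxiliary genes they use.

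The study sequenced single mouse cells from the medial prefrontal cortex with Smart-seq2, a plate-based method that reads whole transcripts without molecular identifiers. All animals were TRAP2;Ai14 mice, in which a tamoxifen-inducible Cre driven from the Fos locus switches on the tdTomato reporter in cells that were active during the labelling window. The 4 groups were Fear-Recall, Fear-Only, Context-Only and Homecage, with 5 mice in each, and the design text places contextual fear conditioning before the sequencing. The labels used here gave neither age nor sex nor the timing of the labelling, so a group is described only by its name.

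In all, 3530 cells were analysed, 1342 from Fear-Recall, 841 from Fear-Only, 912 from Context-Only and 435 from Homecage mice. Titles carried the tag pos for 1806 cells, neg for 779 and both for 96, and neither for 849; the tags are called gates here, although the labels do not say how the cells were sorted. Reads per cell ran from 100002 to 6840943 with a median of 813104. No pair of cells held identical counts. The mouse is the unit of replication throughout: counts were summed over the cells of a mouse, a sum under 10 cells was left out, and Homecage mouse 1 contributed a single cell and so entered no comparison. Levels are given in CPM, reads of a gene scaled to the total of the sum, as mean ± SD over mice. In such sums fewer cells of a type and less RNA per cell cannot be told apart.

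Cells were clustered without the channel genes and without the reporter, and each cluster was named from marker lists, so a name such as Vip-like means a cluster led by the markers of that type. Of the cells, 2351 were excitatory neurons (Slc17a7, Neurod2 and their list) and 1179 inhibitory neurons (Gad1, Gad2 and their list). The 11 named subclasses were upper-layer-like (markers such as Wfs1, Calb1 and Cux2), Rorb-like middle-layer, layer 5 extratelencephalic-like, layer 6 intratelencephalic-like, layer 6 corticothalamic-like and near-projecting-like excitatory neurons, and Vip-like, Sst-like, Sncg-like, neurogliaform-like and Pvalb-like interneurons. Another 461 cells (13.1%) lay in 4 clusters that stayed unnamed, with similar shares in Fear-Recall (13.1%), Fear-Only (12.01%), Context-Only (13.8%) and Homecage (13.3%). The Pvalb-like cluster held 51 cells from 15 mice and too few per mouse for a sum, so its levels are pooled values with no SD. Because the subclasses are clusters of these same cells, their levels are described without a test. All layer 5 extratelencephalic-like sums came from Fear-Recall mice, so the levels of that subclass cannot be told apart from the condition.

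Of the 40 channel genes, 30 reached 10 CPM in at least 1 of the 10 subclasses with values per mouse (45.6% of all genes did), and 12 reached it in every subclass (26.6% of all genes). With 1 CPM added to each level, 28 differed more than 4-fold between their highest and lowest subclass mean (23.5% of all genes). Among genes that reached 10 CPM, 23 of the 30 channel genes and 32.3% of all genes did so. Scn10a, a pore of sensory neurons, and Cacna1f, the L-type pore of the retina, stayed under 1 CPM in every subclass. Among the other 8 that never reached 10 CPM were Scn4b, Scn7a, Cacna2d4, Cacng6, Cacng7, Hcn2 and Hcn4.

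**Figure D1:**
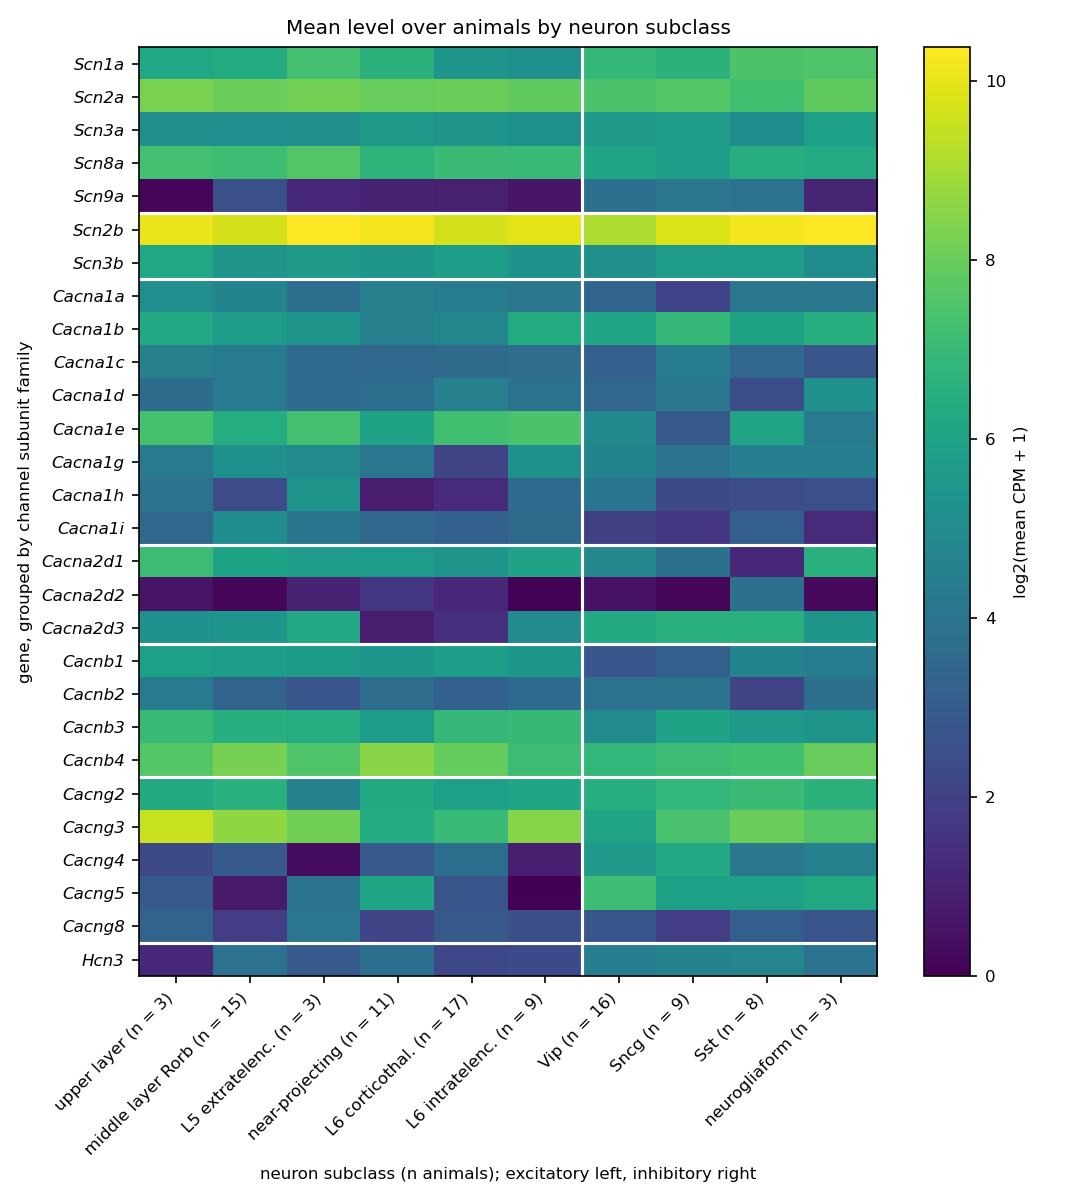
Heat map of the mean CPM over mice on a log2(CPM + 1) colour scale, with 28 of the channel genes that reached 10 CPM in rows grouped by family and the 10 neuron subclasses in columns, excitatory on the left. Cacng5 and Cacng4 are strong in the interneuron columns, Cacna1e and Cacnb1 in the excitatory columns, and Scn2a and Scn8a in all of them.

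Excitatory and inhibitory neurons of the same mice were compared in the 17 mice with 10 or more cells of each. Vip-like cells were 666 of the 1179 inhibitory neurons of the study and Pvalb-like cells 51. Inhibitory class levels therefore describe this mix of sampled cells. Of 27 channel genes at 10 CPM or more in either class, 6 were higher in excitatory neurons in all 17 mice, which is 22.2% against 10.3% of all 9153 genes at that level. Another 5 were higher in inhibitory neurons in all 17 mice, 18.5% against 7.76% of all genes. The median log2 ratio of excitatory over inhibitory, with 1 CPM added to each level, was 0.34 for the channel genes and 0.05 for all genes. Among the 6 excitatory genes were Cacna1a, Cacna1e, Cacnb1, Cacnb3 and Cacnb4, and the 5 inhibitory ones were Cacna2d3, Cacng4, Cacng5, Scn1a and Scn9a.

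Cacng5, a TARP, had the largest ratio of the set. Its level in excitatory neurons ran from 2.84 to 23.4 CPM with a median of 8.06, and in inhibitory neurons from 57.4 CPM upward with a median of 92.2 and a mean of 102.7, a log2 ratio of -3.41 ± 0.76 (SD, n = 17). The lowest inhibitory mouse was above the highest excitatory one. Cacnb1, a calcium channel beta subunit, lay at the other end, at 24.3 to 70.01 CPM (median 54.6) in excitatory and 2.12 to 17.2 CPM (median 8.41) in inhibitory neurons, a log2 ratio of 2.46 ± 0.69. Its lowest excitatory mouse was also above its highest inhibitory mouse.

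**Figure D2:**
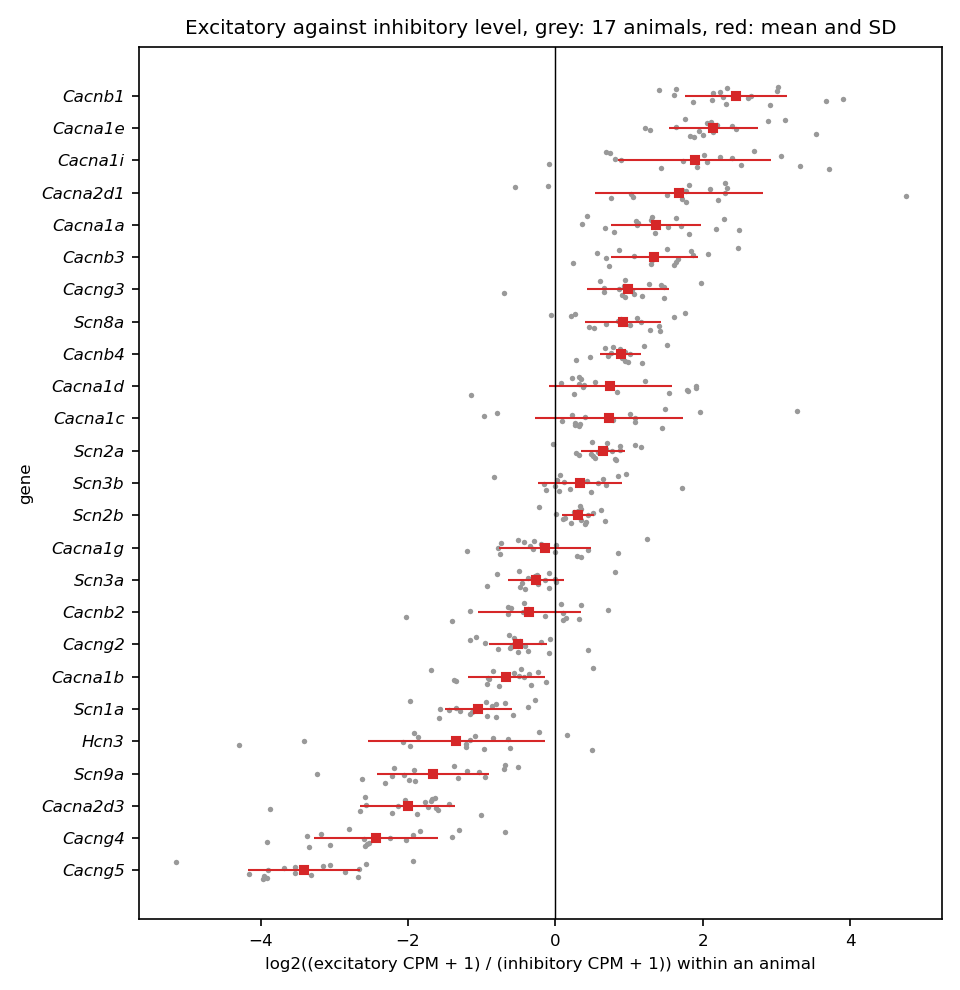
Log2 ratio of excitatory over inhibitory level (1 CPM added) for 25 of the channel genes at 10 CPM or more in a class, with a grey point for each of 17 mice and a red square and bar for mean and SD. Cacnb1 and Cacna1e stand at the excitatory end with means of 2.46 and 2.15, and Cacng5 and Cacng4 at the inhibitory end with means of -3.41 and -2.43.

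The 250 bases before the RefSeq transcription starts (build GRCm38.p6) are shown for the 2 genes at each end of that ratio that the promoter table held: Cacng5 and Cacna2d3 at the inhibitory end, Cacnb1 and Cacna1e at the excitatory end. They are printed 5′ to 3′ on the strand of the gene, and capitals mark each CANNTG, the E-box core, which reads the same on both strands.
Cacng5 chr11:107915056-107915305 (-): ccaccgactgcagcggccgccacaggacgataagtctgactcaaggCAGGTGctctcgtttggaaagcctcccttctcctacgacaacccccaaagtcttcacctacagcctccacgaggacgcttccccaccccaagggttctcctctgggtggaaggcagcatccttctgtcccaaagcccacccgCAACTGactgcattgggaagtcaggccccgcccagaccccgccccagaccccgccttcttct
Cacng5 chr11:107911363-107911612 (-): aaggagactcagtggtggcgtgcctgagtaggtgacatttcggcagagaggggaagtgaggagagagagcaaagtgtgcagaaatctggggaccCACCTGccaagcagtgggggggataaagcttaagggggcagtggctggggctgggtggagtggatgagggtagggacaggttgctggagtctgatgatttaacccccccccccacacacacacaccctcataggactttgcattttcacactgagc
Cacna2d3 chr14:29721865-29722114 (-): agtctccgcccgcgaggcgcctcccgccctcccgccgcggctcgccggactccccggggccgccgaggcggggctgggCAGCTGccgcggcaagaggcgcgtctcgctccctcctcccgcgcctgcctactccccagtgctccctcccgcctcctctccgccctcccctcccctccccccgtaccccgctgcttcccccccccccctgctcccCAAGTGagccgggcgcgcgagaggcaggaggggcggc
Cacnb1 chr11:98022628-98022877 (-): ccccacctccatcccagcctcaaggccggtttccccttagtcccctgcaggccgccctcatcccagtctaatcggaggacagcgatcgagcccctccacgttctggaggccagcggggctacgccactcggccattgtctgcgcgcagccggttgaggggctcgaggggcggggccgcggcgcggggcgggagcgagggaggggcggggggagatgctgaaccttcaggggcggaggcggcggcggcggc
Cacnb1 chr11:98018373-98018622 (-): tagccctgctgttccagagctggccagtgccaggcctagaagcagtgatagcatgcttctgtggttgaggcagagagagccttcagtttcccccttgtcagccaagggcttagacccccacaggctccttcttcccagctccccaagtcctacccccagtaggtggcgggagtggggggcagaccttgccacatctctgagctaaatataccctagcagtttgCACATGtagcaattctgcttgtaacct
Cacna1e chr1:154725921-154726170 (-): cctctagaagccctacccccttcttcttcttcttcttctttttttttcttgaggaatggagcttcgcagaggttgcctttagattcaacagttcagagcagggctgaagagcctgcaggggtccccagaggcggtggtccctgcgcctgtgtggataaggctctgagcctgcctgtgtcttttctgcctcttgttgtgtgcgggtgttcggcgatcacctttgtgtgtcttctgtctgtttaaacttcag

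Both Cacng5 starts and the Cacna2d3 start had an E-box core, 1 of the 2 Cacnb1 starts had one, and the Cacna1e start had none. The Cacna1e window lies within the GENCODE M21 gene, whose 5′ end is at 154884501, so it is not the region before that end. Both Cacnb1 windows and the second Cacng5 window also lie within their genes. The core is common: 66.2% of 32851 promoters of this length held it, and 25 of the 40 promoters of the 29 channel genes in the table did. CG pairs numbered 30 in the Cacna2d3 window, 26 in the first Cacnb1 window and 12 in the first Cacng5 window, against 6 in the Cacna1e window, 2 in the second Cacng5 window and 1 in the second Cacnb1 window. GGGCGG, a GC box, on either strand was in 16 of the 40 channel gene promoters (32.7% of all promoters), TATAAA in 2 (12.4%, Cacna1d and Scn2a), and neither TAATTA (4.84%) nor TGACGTCA (1.55%) in any. A match describes these letters and was not tested as a binding site. Cacna1a, Cacna1g, Cacna1h, Cacna2d4, Cacng4, Hcn3, Scn3a and Scn3b were among those not in the promoter table.

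Among the sodium channel pores, Scn2a, the pore of excitatory axons and dendrites, led in excitatory neurons. Summed per kb of exon over the 8 pores, Scn2a made up 52.8% ± 4.7 of the excitatory total, Scn8a, the pore of the distal axon initial segment and nodes, 23.1% ± 3.4, Scn1a, the pore best known from interneurons, 14.5% ± 4.0 and Scn3a, the pore abundant before birth, 7.94% ± 2.3 (SD, n = 17). In inhibitory neurons Scn1a was 32.8% ± 6.8 of the total beside Scn2a at 37.7% ± 7.0, with Scn8a at 13.7% ± 3.7 and Scn3a at 10.5% ± 2.8. The Scn1a share was larger in inhibitory neurons, and the Scn2a and Scn8a shares larger in excitatory neurons, in 17 of 17 mice. The summed pore level itself differed little, 38.9 ± 5.1 CPM per kb in excitatory and 35.3 ± 6.0 in inhibitory neurons, and was higher in excitatory neurons in 12 of 17 mice.

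By subclass, Scn1a was at 183.2 ± 64 CPM in neurogliaform-like neurons (from 125.8 to 251.9 in 3 mice), 180 ± 62 in Sst-like neurons (n = 8) and 154.6 ± 62 in layer 5 extratelencephalic-like neurons (88.03, 165.9 and 209.9). These 3 did not differ beyond their spread. It was lowest in layer 6 corticothalamic-like (41.7 ± 16, n = 17) and layer 6 intratelencephalic-like neurons (36.2 ± 20, n = 9), which overlapped as well. The pooled Pvalb-like cells stood at 281.2 CPM for Scn1a, above every subclass mean, and at 96.1 for Scn2a, below every subclass mean.

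Scn2a itself ranged only from 315 ± 91 CPM in upper-layer-like neurons (n = 3) to 148.9 ± 46 in Sst-like neurons (n = 8). Scn8a was highest in layer 5 extratelencephalic-like neurons at 193.3 ± 20 CPM (n = 3) and lowest in Sncg-like neurons at 56.2 ± 17 (n = 9), with ranges that did not meet. Scn3a was the flattest pore, between 56.4 ± 16 in neurogliaform-like and 31.9 ± 18 in Sst-like neurons. The less abundant pores were more restricted.

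Scn9a, known from pain-sensing neurons, reached 16.5 ± 9.3 CPM in Sncg-like, 14.2 ± 11 in Sst-like and 12.7 ± 15 in Vip-like neurons, and its excitatory subclasses ran from 0.093 to 4.83 CPM. Over the classes it was at 0.93 to 33.3 CPM (median 8.45) in inhibitory and 0 to 13.2 CPM (median 2.41) in excitatory neurons, ranges that overlapped although the inhibitory value was higher in each of the 17 mice. Scn7a, the sodium-sensing Nax channel, had reads mainly in Rorb-like (8.92 ± 4.9 CPM, n = 15) and Vip-like neurons (7.15 ± 5.5, n = 16). The 632 layer 6 corticothalamic-like cells held 0 Scn7a reads in 624663098, which allows up to 0.00480 CPM (3 reads). With each cell thinned to 100000 reads, 20.2% of 588 Rorb-like cells (27.2% unthinned) had a Scn7a read, against 0 of 632 layer 6 corticothalamic-like cells, which allows a share of up to 0.475%. Such limits cover counting error only, since reads without molecular identifiers are not independent molecules.

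The sodium channel beta subunits are single-pass membrane proteins that set the gating and surface level of the pores. Scn4b, the beta subunit linked to resurgent current, was low but almost confined to excitatory neurons among these sums: 0.65 to 9.13 CPM (median 1.83) in the excitatory neurons of 17 mice and at most 0.076 CPM in the inhibitory ones. It was highest in near-projecting-like (7.13 ± 8.4, n = 11) and layer 5 extratelencephalic-like neurons (5.61 ± 2.3, n = 3). The 51 Pvalb-like cells held 0 Scn4b reads in 50610074, which allows up to 0.0593 CPM (3 reads).

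Scn2b levels fell into separate ranges by the number in the mouse labels. In excitatory neurons it stood at 535 and 847 CPM in the 2 mice numbered 1, at 999 to 1321 in the 4 numbered 2, at 1156 to 1686 in the 4 numbered 3, at 187.2 to 325 in the 4 numbered 4 and at up to 223.8 (median 158.7) in the 5 numbered 5. Every mouse numbered 1 to 3 was above every mouse numbered 4 or 5. Inhibitory neurons of the same mice gave 498 and 841, 754 to 1208, 998 to 1443, 139.6 and 153.4, and 89.97 to 176.1 CPM in that order. The split was also present within single subclasses: in layer 6 corticothalamic-like neurons 506 to 1986 CPM for numbers 1 to 3 (n = 10) and 110 to 238.1 for numbers 4 and 5 (n = 7), and in Vip-like neurons 485 to 1224 (n = 9) and 75.9 to 142.8 (n = 7).

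**Figure D3:**
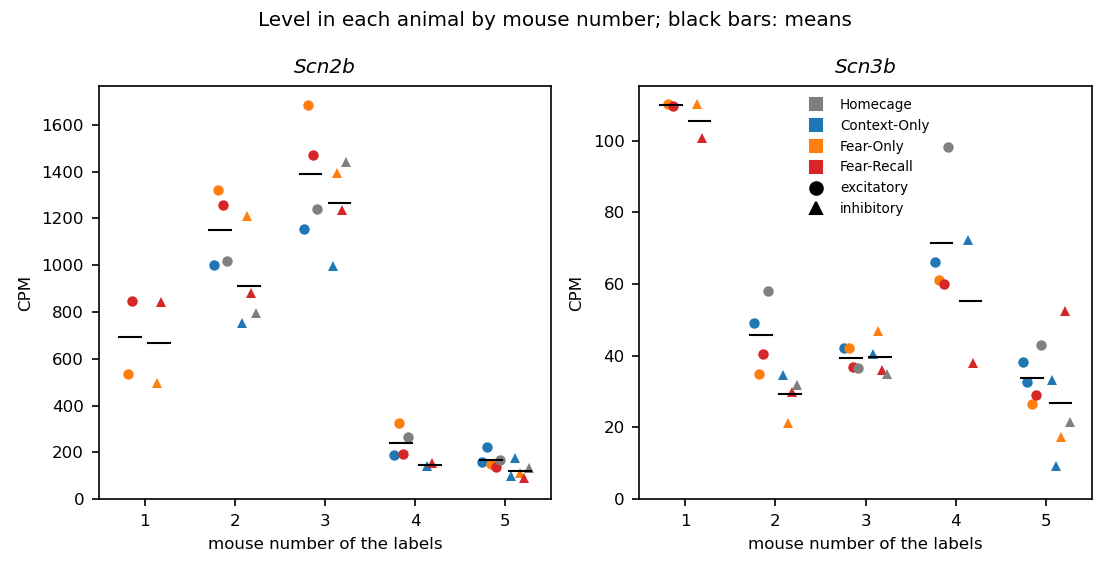
CPM of Scn2b and Scn3b in excitatory (circles) and inhibitory neurons (triangles) of each mouse against the mouse number in the labels, with colour for the condition and black bars at the means. In excitatory neurons Scn2b lies at 535 to 1686 CPM for numbers 1 to 3 and at up to 325 for numbers 4 and 5.

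Each number occurs in several conditions, so the mouse number could be tested beside the condition, a comparison added after these values were seen. In excitatory neurons 10 of 38 channel genes differed by mouse number, where 16.7% of all 18965 genes did (edgeR's quasi-likelihood F-test, adjusted by Benjamini-Hochberg). Scn2b had the smallest adjusted p, 2.3e-07, followed by Scn3b at 0.00011 and Cacng2 at 0.00023, with Cacnb4 at 0.0074. Others were Cacng3, Cacna1i, Cacna1e, Cacna1b and Cacng6. Leaving out single mice gave 7 to 10 genes, and inhibitory neurons gave 3 of 36 (Cacna2d3 and Scn2b among them), where 7.51% of all genes were called. Labels used here do not say what a number stands for. The depth per cell moved with it, from a median of 439900 reads in the excitatory neurons of mice numbered 1 to 742300, 740000, 1353000 and 1111000 for numbers 2 to 5. Its part in these differences was not tested. A Scn2b read was found in 96.1% or more of excitatory cells at every number.

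Scn3b followed another order. It was at 110 CPM in both mice numbered 1, at 60.1 to 98.1 in those numbered 4, and at 26.5 to 58.1 in those numbered 2, 3 or 5. Cacng2 was lowest for number 1, at 23.8 and 30.5 CPM against 49.1 or more in all the others. The upper-layer-like, neurogliaform-like and layer 5 extratelencephalic-like sums all came from mice numbered 1 to 3, so their high mean Scn2b (1094 ± 96, 1325 ± 153.6 and 1336 ± 411 CPM) cannot be told apart from the mouse number. The same limit holds for their levels of the other genes that differed by mouse number, such as Cacng2, Cacng3, Cacna1e, Cacna1b and Cacnb4.

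Calcium channel pores divided by class. Cacna1e, the R-type pore, was at 91.3 to 188.2 CPM (median 130.1) in excitatory and 14.1 to 73.3 CPM (median 31.3) in inhibitory neurons, a log2 ratio of 2.15 ± 0.61 with no overlap. In neg cells only, the ratio was 2.75 (n = 6). Cacna1b, the N-type pore of presynaptic terminals, went the other way in 16 of 17 mice, at 48.2 ± 11 and 77.4 ± 21 CPM. Per kb, Cacna1e was 27.7% ± 5.1 of the pore total in excitatory and 8.40% ± 4.1 in inhibitory neurons, whereas Cacna1b was 25.4% ± 4.0 and 51.98% ± 10, each shift in 17 of 17 mice. Cacna1a, the P/Q-type pore, was at 15.5 to 28.3 CPM in excitatory and 2.38 to 15.8 CPM in inhibitory neurons, ranges that met at their edges although the excitatory value was higher in each mouse. The pore total was 18.97 ± 2.8 CPM per kb in excitatory and 14.9 ± 2.5 in inhibitory neurons and was higher in excitatory neurons in 16 of 17 mice.

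Within the excitatory neurons Cacna1e was high and alike in layer 6 intratelencephalic-like (173.7 ± 40 CPM, n = 9), upper-layer-like (163.9 ± 12, n = 3), layer 5 extratelencephalic-like (160 ± 23, n = 3) and layer 6 corticothalamic-like neurons (150 ± 64, n = 17). It was lower in Rorb-like (86.3 ± 37, n = 15) and near-projecting-like neurons (62.6 ± 28, n = 11) and lowest in Sncg-like interneurons (6.63 ± 6.9, n = 9). Cacna1b was highest in Sncg-like neurons (121.1 ± 40) and lowest in near-projecting-like (21.8 ± 12) and layer 6 corticothalamic-like neurons (25.9 ± 12).

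The T-type pores, which open near rest and support burst firing, differed in their subclasses, although Cacna1i and Cacna1g were both highest in Rorb-like neurons. Cacna1h stood at 40.4 ± 13 CPM in layer 5 extratelencephalic-like neurons (25.02, 48.02 and 48.2 in the 3 mice), against 15.6 ± 13 in Vip-like (n = 16) and 0.79 ± 1.0 in near-projecting-like neurons (n = 11). Cacna1i was highest in Rorb-like neurons at 32.5 ± 11 CPM (n = 15), with 15.2 ± 6.3 in layer 5 extratelencephalic-like neurons as the next. Cacna1g was at 35.7 ± 8.6 in Rorb-like and 35.6 ± 14 in layer 6 intratelencephalic-like neurons but at 3.37 ± 6.3 in layer 6 corticothalamic-like neurons (n = 17), the lowest of the 10 and below the 14.7 ± 7.0 of Sncg-like neurons, the next. Among the L-type pores, which couple activity to gene expression, Cacna1d was highest in neurogliaform-like neurons (36.6 ± 25, n = 3) and Cacna1c in upper-layer-like neurons (22.3 ± 13, n = 3), both with ranges that overlapped other subclasses.

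The alpha2delta subunits, which carry calcium channels to the surface and bind gabapentin in the case of Cacna2d1 and Cacna2d2, nearly exchanged places between the classes. Cacna2d1 made up 64.9% ± 6.8 of the alpha2delta total per kb in excitatory and 15.8% ± 11 in inhibitory neurons, and Cacna2d3 32.6% ± 6.4 and 80.7% ± 12. Both shifts held in 17 of 17 mice. Cacna2d3 was at 12.6 to 33.7 CPM (median 23.2) in excitatory and 41.3 to 258.6 CPM (median 78.3) in inhibitory neurons, without overlap.

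**Figure D4:**
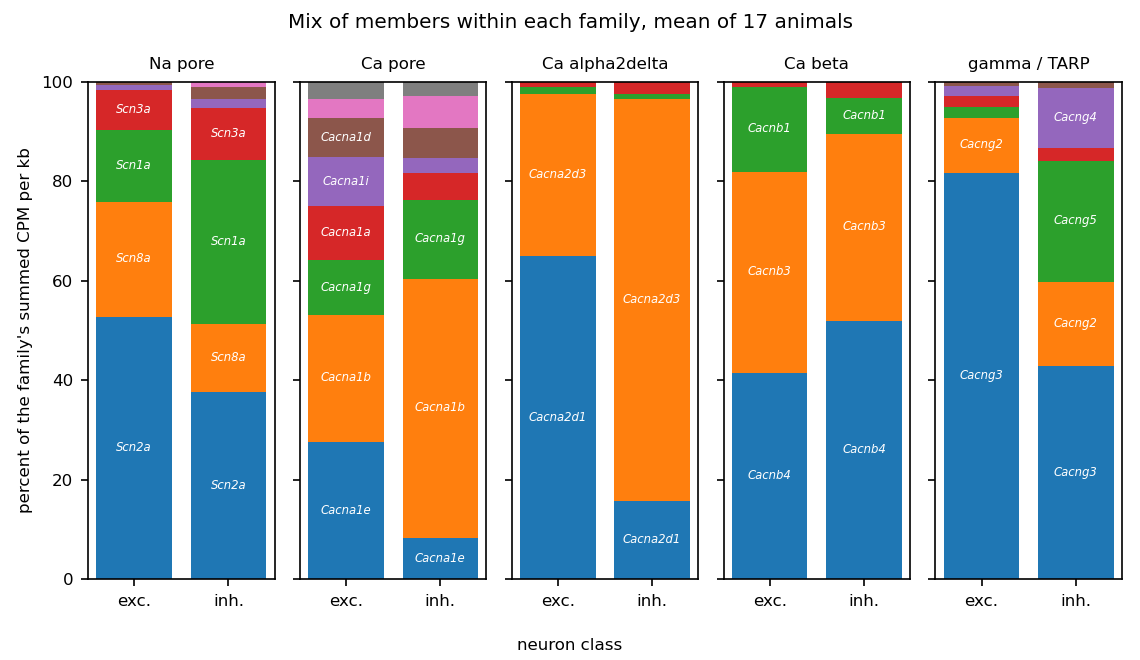
Share of each gene in its family total per kb of exon, as stacked bars for 5 of the families, for excitatory and inhibitory neurons, as the mean over 17 mice. Cacna2d1 is 64.9% in excitatory and 15.8% in inhibitory neurons, Cacna2d3 32.6% and 80.7%, and Cacng3 81.7% and 42.8%.

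Within each class the subclasses departed from that pattern. Cacna2d3 was nearly absent from layer 6 corticothalamic-like (1.62 ± 1.8 CPM, n = 17) and near-projecting-like neurons (0.78 ± 2.5, n = 11), yet reached 75.4 ± 26 in layer 5 extratelencephalic-like neurons (n = 3), close to the 78.6 ± 34 of Vip-like neurons (n = 16). In cells thinned to 100000 reads a Cacna2d3 read was found in 0.43% of near-projecting-like cells (0.85% unthinned) and in 89.4% of layer 5 extratelencephalic-like cells (94.2% unthinned), whose median depths were 815931 and 776934.5 reads. Cacna2d1 was highest in upper-layer-like neurons (140 ± 34, n = 3), was also high in neurogliaform-like interneurons (95.3 ± 50, n = 3), and was at 1.27 ± 1.9 in Sst-like neurons (n = 8). Cacna2d2 reached 10 CPM only in Sst-like neurons (13.4 ± 11), and the pooled Pvalb-like cells were at 11.1.

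The calcium channel beta subunits, cytoplasmic partners that bring the pore to the membrane and set its gating, were more abundant in excitatory neurons as a family, with a log2 ratio of summed CPM per kb of 1.21 ± 0.31, in 17 of 17 mice. Cacnb3 was at 62.2 to 134.6 CPM (median 104.2) in excitatory and 14.3 to 90.5 (median 39.5) in inhibitory neurons, and Cacnb4 at 129.4 to 361 (median 270.7) and 56.5 to 296.6 (median 133.2). Their ranges over mice overlapped, while within each mouse the excitatory value was the higher one. Cacnb1 took 16.9% ± 3.9 of the family per kb in excitatory and 7.11% ± 3.4 in inhibitory neurons. Its 6 excitatory subclass means lay between 42.8 and 57.6 CPM, and its interneuron means between 5.84 in Vip-like and 24.6 in Sst-like neurons. Cacnb4 was highest in near-projecting-like neurons (372 ± 103.5, n = 11) and Cacnb2 in upper-layer-like neurons (18.5 ± 14, n = 3), the latter overlapping most other subclasses.

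Among the gamma subunits, Cacng3, the main TARP of these cells, took 81.7% ± 3.3 of the family total per kb in excitatory neurons and 42.8% ± 5.4 in inhibitory neurons. The family total per kb had a log2 ratio of 0.05 ± 0.44, a difference within its spread. The difference was made up in inhibitory neurons by Cacng5 (24.3% ± 7.8 against 2.27% ± 1.6), Cacng2, which encodes stargazin (17.01% ± 5.4 against 11.01% ± 2.1), and Cacng4 (12.2% ± 4.6 against 2.01% ± 1.2). For Cacng3, Cacng4 and Cacng5 the direction was the same in 17 of 17 mice and for Cacng2 in 15.

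Cacng3 graded across the subclasses, from 724 ± 73 CPM in upper-layer-like neurons (641 to 780, n = 3) through 404 ± 78 in Rorb-like (n = 15) and 130 ± 39 in layer 6 corticothalamic-like neurons (n = 17) to 82.01 ± 31 in near-projecting-like (n = 11) and 66.7 ± 31 in Vip-like neurons (n = 16). The lowest pair did not differ beyond its spread, with Vip-like below near-projecting-like neurons in 7 of 11 mice. Cacng5 was highest in Vip-like neurons, at 75.2 to 319 CPM with a mean of 141.2 ± 70. It was also present in the near-projecting-like excitatory neurons at 26.1 to 118.5 CPM (69.1 ± 30), a level like that of Sst-like (60.5 ± 19) and Sncg-like interneurons (58.4 ± 38).

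Other excitatory subclasses had little Cacng5: 5.51 ± 4.9 CPM in layer 6 corticothalamic-like, 0.68 ± 2.2 in Rorb-like, and 0 in all 9 layer 6 intratelencephalic-like sums. In the layer 5 extratelencephalic-like neurons Fear-Recall mouse 2 held 44.9 CPM and Fear-Recall mice 1 and 3 were at 0, and in the upper-layer-like neurons Fear-Recall mouse 2 again held the reads, at 20.3 CPM. In cells thinned to 100000 reads a Cacng5 read was found in 69.2% of Vip-like cells (74.9% unthinned) and 60.9% of near-projecting-like cells (68.1% unthinned). The share was 0.68% in Rorb-like cells (0.85% unthinned), and 0 cells had one among layer 6 intratelencephalic-like cells, which allows up to 1.46%. Not all interneurons shared it: the 51 Pvalb-like cells held 3 Cacng5 reads in all, 0.0593 CPM.

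Cacng4, which lies beside Cacng5 on chromosome 11 (107732357 to 107794557, with Cacng5 at 107874605 to 107915055, both on the minus strand of GRCm38), had a different order within the interneurons. It was highest in Sncg-like neurons (77.1 ± 28 CPM, n = 9), followed by Vip-like (48.1 ± 20) and neurogliaform-like neurons (22.4 ± 1.1, n = 3). Layer 6 corticothalamic-like neurons stood at 12.4 ± 10 and near-projecting-like neurons, rich in Cacng5, at 6.39 ± 5.7. Cacng2 was lowest in layer 5 extratelencephalic-like neurons (22.4 ± 10, n = 3), the subclass in which Cacng8, another TARP, was highest (15.7 ± 5.5).

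HCN channels as a family were more abundant in inhibitory neurons, at 10.1 ± 4.2 against 4.41 ± 1.2 CPM per kb, in 17 of 17 mice. Hcn3 was at 1.70 to 16.7 CPM (median 7.52) in excitatory and 5.10 to 67.3 CPM (median 18.7) in inhibitory neurons, ranges that overlapped, and was higher in inhibitory neurons in 15 of 17 mice. Its log2 ratio was -1.34 ± 1.2, but in neg cells only it was 0.007 ± 2.2, with 3 of 6 mice in each direction. Hcn2 was low in both, at 2.63 ± 1.4 and 2.42 ± 1.4 CPM, and higher in excitatory neurons in 9 of 17 mice. By subclass, Hcn3 was highest in Sst-like (26.3 ± 15) and Sncg-like neurons (23.9 ± 19). Its exons overlap those of Pklr on the opposite strand, with a longest shared stretch of 711 bases. The strand of a read was not kept, so reads within shared stretches cannot be told apart. The same holds for Cacna1a, Cacna1d, Cacna1h, Cacna2d2, Cacnb1, Cacnb2, Cacnb4, Cacng2 and Scn9a with other genes. Their longest shared stretches ran from 80 bases in Cacnb1 to 1170 in Cacnb4.

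The pos and neg gates of the same mice were compared for channel genes that differ between them. In all of these mice but Context-Only mouse 4, the titles gave pos and neg cells different plate tags (p and a number). Gate and plate therefore cannot be told apart in those mice. Levels by gate and by condition are CPM after TMM scaling, which corrects the totals for composition. A reporter read was present in 23.5% to 96.9% of pos cells and 7.27% to 12.8% of neg cells in the 8 mice with both gates. No channel gene passed in the sums of all neurons: 0 of 38 tested, where 51 of 17752 genes passed (0.287%, with 0.259% higher and 0.0282% lower; edgeR's quasi-likelihood test, adjusted by Benjamini-Hochberg, with the mouse as a block). At an unadjusted p under 0.05 there were 7 of 38, where 10.6% of all genes were. DESeq2 called 5 channel genes, all higher in the pos gate (with Cacng4, Cacng5, Scn7a and Scn9a among them), of 647 genes in all. The median log2 difference was 0.05 over the channel genes and 0.02 over all genes.

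Both genes of smallest p were TARPs. Cacng4 stood at 7.14 to 16.7 CPM (median 11.3) in the neg gate and 15.2 to 29.8 CPM (median 21.5) in the pos gate, higher in the pos gate in 8 of 8 mice, a log2 difference of 0.98 (SE 0.22) with an adjusted p of 0.114 by edgeR's quasi-likelihood test. Over the alternatives fitted to all neurons its adjusted p ran from 0.000683 by DESeq2 to 0.299. Cacng5 stood at 12.6 to 37.9 CPM (median 27.1) and 27.3 to 62.8 CPM (median 40.6), again higher in 8 of 8 mice, by 0.73 (SE 0.16, edgeR adjusted p = 0.1085), and its adjusted p ran from 0.00169 by DESeq2 to 0.727. Within layer 6 corticothalamic-like neurons alone, an alternative added after these values were seen, the log2 differences were -0.29 for Cacng4 and -0.93 for Cacng5 in 5 mice, neither past the threshold. The 2 gates overlapped in both genes when mice were not paired. Cacnb3 was lower in the pos gate in 7 of 8 mice by 0.37 (SE 0.14, edgeR adjusted p = 0.390).

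These are the genes with large class ratios, and the gates differed in class. Inhibitory neurons were 31.3% to 44.7% of pos cells and 12.9% to 27.6% of neg cells, and Vip-like neurons 16.1% to 29.7% and 5.43% to 15.5%, each higher in the pos gate in 8 of 8 mice. Within excitatory neurons Cacng5 was instead at 6.503 to 18.1 CPM in the neg gate and 2.63 to 11.9 in the pos gate, lower in the pos gate in 7 of 8 mice, a log2 difference of -0.86 (SE 0.28, edgeR adjusted p = 0.560). Near-projecting-like neurons, the excitatory cells with Cacng5, made up 5.56% to 21.7% of excitatory neg cells and 4.25% to 12.8% of excitatory pos cells, fewer in the pos gate in 6 of 8 mice. Within inhibitory neurons of the 6 mice with enough cells Cacng5 was at 99.3 ± 31 and 110 ± 33 CPM, a log2 difference of 0.13 (SE 0.24), and Cacng4 at 32.5 ± 12 and 48.5 ± 19, a difference of 0.60 (SE 0.32), neither past the threshold. The part of class makeup in the differences over all neurons was not tested beyond these values.

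**Figure D5:**
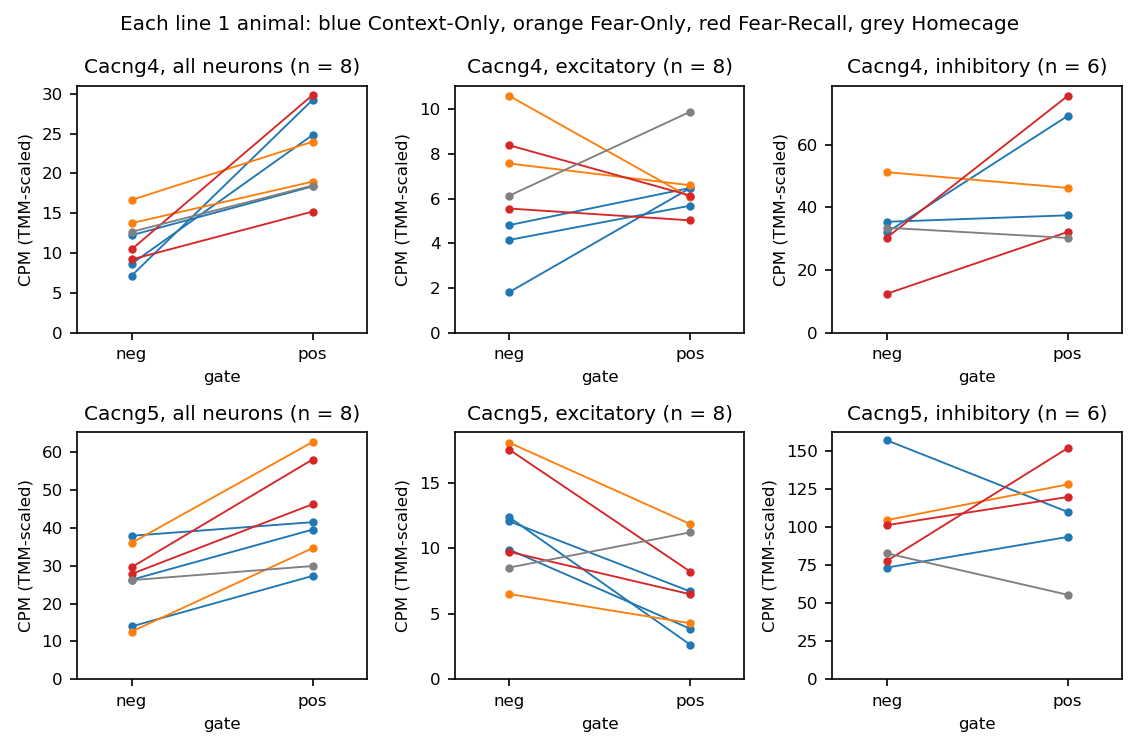
TMM-scaled CPM of Cacng4 and Cacng5 in the neg and pos gate sums, with a line for each mouse, over all neurons, excitatory neurons and inhibitory neurons. Over all neurons each of the 8 lines goes up in both genes, while for Cacng5 in excitatory neurons 7 of 8 go down.

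Within excitatory neurons 0 of 37 channel genes passed, where 2 of 16799 genes did (0.0119%), and 3 had an unadjusted p under 0.05 (Cacng5, Cacng6 and Cacna1i, of which Cacng6 is named after its values were seen), where 7.13% of all genes did (3.6% higher and 3.53% lower). Cacna1i, the T-type pore of Rorb-like neurons, was at 4.997 to 37.2 CPM in the neg and 17.5 to 34.5 in the pos gate, a log2 difference of 0.73 (SE 0.29, edgeR adjusted p = 0.677) and higher in 5 of 8 mice. Cacng2 (0.23, SE 0.14), Scn2a (0.20, SE 0.13) and Cacnb3 (-0.17, SE 0.14) were next. Without 1 mouse these moved to 0.34 (Context-Only mouse 2), 0.11 (Homecage mouse 2) and -0.08 (Fear-Only mouse 2). Within inhibitory neurons 0 of 35 passed and 0 of 14455 genes in all (0%), with 1 channel gene at an unadjusted p under 0.05 (9.76% of all genes, 7.25% in the higher direction). That was Cacnb2, at 1.34 to 11.1 CPM in the neg and 9.18 to 31.2 in the pos gate, higher in 5 of 6 mice, with a log2 difference of 1.86 (SE 0.76, edgeR adjusted p = 0.479). Scn3a (0.62, SE 0.33, or 0.39 without Context-Only mouse 2) was also among those of small p. DESeq2 called no channel gene within either class.

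In the test of whether the gate difference of Fear-Recall mice departed from that of the other conditions, 0 of 38 channel genes passed (0 of 17752 genes in all, 0%), and none reached an unadjusted p of 0.05 (0.653% of all genes). The 4 of smallest p were Scn3b (-0.49, SE 0.31), Cacna2d3 (0.43, SE 0.34), Cacna1c (0.51, SE 0.46) and Scn8a (0.30, SE 0.32). Without Fear-Recall mouse 2 the Cacna2d3 value was 0.17 and the Scn8a value 0.02.

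Fear-Recall was compared with the other conditions in the pos gate, where 3 Fear-Recall, 2 Fear-Only and 3 Context-Only mice shared 1 fit. Against Context-Only 0 of 39 channel genes and 0 of 20381 genes passed (0%), with none by DESeq2 and 1 at an unadjusted p under 0.05 (3.38% of all genes, 1.26% in the lower direction). Scn1a was at 89.7, 102.4 and 103.7 CPM in the Fear-Recall mice and at 69.3, 71.1 and 81.8 in the Context-Only mice, groups that did not overlap, a log2 difference of 0.41 (SE 0.23, edgeR adjusted p = 0.970). Scn3b was at 31.7, 33.1 and 50.4 CPM against 40.9, 55.3 and 70.5, groups that did, a difference of -0.53 (SE 0.29, edgeR adjusted p = 0.970). Cacnb4 (0.38, SE 0.30) and Cacna1a (0.29, SE 0.25) had the next smallest p among genes of 10 CPM or more. Without 1 mouse, Scn3b moved to -0.33 (Context-Only mouse 4), Cacnb4 to 0.14 (Context-Only mouse 2) and Cacna1a to 0.19 (Fear-Recall mouse 4).

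Scn1a also headed the excitatory neurons, where 0 of 38 channel genes and 0 of 19294 genes passed (0%) and no channel gene had an unadjusted p under 0.05 (3.96% of all genes). It was at 69.2, 86.4 and 97.3 CPM after recall and 29.1, 54.4 and 67.5 in Context-Only mice, again without overlap (0.74, SE 0.34, edgeR adjusted p = 0.940). The excitatory cells are part of the sums of all neurons, so this Scn1a value is not independent of the one above. With so few mice, groups can also separate by chance. Scn3b (-0.48, SE 0.29), Hcn3 (-0.62, SE 0.46) and Cacna1e (-0.38, SE 0.30) followed. Without Context-Only mouse 2, Scn1a was at 0.47 and Cacna1e at -0.18, and without Context-Only mouse 4 Hcn3 was at -0.32. In inhibitory neurons 0 of 36 channel genes and 0 of 17547 genes passed (0%), and 1 channel gene had an unadjusted p under 0.05 (4.06% of all genes). Cacna1h was at 11.2, 14.9 and 24.5 CPM after recall and 0.95, 5.74 and 9.57 in Context-Only mice, also without overlap (1.64, SE 0.82, edgeR adjusted p = 0.990). Scn3b (-0.74, SE 0.36), Cacna1c (1.01, SE 0.62) and Cacna1e (-0.58, SE 0.41) were the others of small p. Without 1 mouse these moved to -0.42 (Context-Only mouse 4), 0.35 (Fear-Recall mouse 2) and -0.30 (Context-Only mouse 2).

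Against Fear-Only 0 of 39 channel genes and 0 of 20381 genes passed (0%), and 1 channel gene, the low Scn9a, had an unadjusted p under 0.05 (1.88% of all genes, 1.4% in the higher direction). Among genes of 10 CPM or more Cacna1c (0.70, SE 0.36), Cacna1e (0.63, SE 0.37), Cacna1a (0.39, SE 0.28) and Cacna1d (0.56, SE 0.43) had the smallest p, and the Cacna1e value was 0.405 without Fear-Recall mouse 4. Between Fear-Only and Context-Only 0 of 39 and 0 of 20381 passed (0%), and Hcn4, Cacna1e and Scn9a had an unadjusted p under 0.05 (2.52% of all genes, 0.942% in the lower direction). Cacna1e was at 48.7 and 52.9 CPM in the Fear-Only mice and at 61.1, 111.8 and 123.8 in the Context-Only mice, groups that did not overlap, a log2 difference of -0.96 (SE 0.37, edgeR adjusted p = 1.0), beside Scn3b (-0.73, SE 0.34), Scn1a (0.42, SE 0.25, or 0.25 without Fear-Only mouse 2) and Cacna1c (-0.55, SE 0.36, or -0.32 without Context-Only mouse 2). In the Fear-Recall mice Cacna1e was at 59.7, 74.8 and 100.8 CPM. These comparisons share their samples, so their values are not independent of each other.

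Homecage had pos cells in 1 mouse only, so it was compared over all cells of a mouse, with 4 Homecage mice and 5 of each other condition. The gates were mixed in different proportions between these mice. Against Homecage, 0 of 39 channel genes passed for Fear-Recall, for Fear-Only and for Context-Only, as did 0 of 19698 genes (0%) in each, and 3, 5 and 3 channel genes had an unadjusted p under 0.05 (8.86%, 6.75% and 4.89% of all genes). Among them were the low genes Cacng6 in all 3 comparisons and Cacna1h in the comparisons of Fear-Only and Context-Only, named after their values were seen. Cacna1b ran from 65.6 to 112.5 CPM (65.6, 66.2, 67.8 and 112.5) in Homecage, from 35.6 to 59.5 in Fear-Recall (median 57.3) and from 38.8 to 63.2 in Fear-Only mice (median 55.9). Homecage did not overlap either, with log2 differences of -0.54 (SE 0.22, edgeR adjusted p = 0.558) and -0.54 (SE 0.22, edgeR adjusted p = 0.723). Without Homecage mouse 4, a sum of 17 cells, both were -0.31.

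Cacna2d3 was at 31.4 to 128.2 CPM in Fear-Only and 19.2 to 57.7 in Homecage mice (0.91, SE 0.39, edgeR adjusted p = 0.723). Scn2a was at 181.2 to 265.4 CPM in Context-Only and 233.8 to 388 in Homecage mice (-0.41, SE 0.19, edgeR adjusted p = 0.9998). Both pairs of ranges overlapped. Cacna1g (0.63, SE 0.32) and Scn2a (-0.40, SE 0.19) followed for Fear-Recall, Hcn3 (0.86, SE 0.43) for Fear-Only, and Cacna2d3 (0.62, SE 0.39), Cacnb3 (-0.49, SE 0.31) and Cacnb2 (-0.58, SE 0.39) for Context-Only. Without Homecage mouse 4 the Cacnb3 difference was 0.15 and that of Cacnb2 -0.03. Without Fear-Only mouse 1 the Fear-Only difference was 0.49 for Cacna2d3 and 0.47 for Hcn3. Without Homecage mouse 2 the Scn2a difference was -0.24 for Context-Only and -0.23 for Fear-Recall, and without Homecage mouse 5 the Context-Only difference of Cacna2d3 was 1.03.

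Summed levels of astrocyte, oligodendrocyte, oligodendrocyte precursor, microglial and endothelial markers overlapped between the gates and, over all cells of a mouse, between the conditions, for example 289.3 to 435 CPM of 8 astrocyte markers in pos and 238.5 to 448 in neg sums. In the pos gate they overlapped between conditions except in 2 comparisons. The 7 oligodendrocyte markers summed to 79.9, 90.2 and 123.2 CPM in Fear-Recall and to 166.8, 207.2 and 237.3 in Context-Only mice, and the 6 endothelial markers to 804.7 to 1066 in Fear-Recall and to 1112 and 1222 in Fear-Only mice. As many as 4 of the 6 endothelial markers had no read in a pos or neg sum. Such a total can rest on few genes and is no measure of endothelial cells. The part of these markers in the channel gene values was not tested. Genes known to work with these channels, a list of 42 that holds ankyrins, FGF homologous factors, calmodulins, RIM proteins and calcium release channels, gave no call either, with 0 of 41 tested in the gate comparison of all neurons, 0 of 38 in excitatory and 0 of 39 in inhibitory neurons, and 0 in each comparison of conditions. At an unadjusted p under 0.05 there were 6, 6 and 5 in the gate comparisons, where 10.6%, 7.13% and 9.76% of all genes were. The median partner difference was -0.02, 0.09 and 0.20 in the 3 gate comparisons.

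Rims2, a scaffold of the presynaptic active zone, had the smallest p of the partners over all neurons (0.44, SE 0.13, edgeR adjusted p = 0.267) and in excitatory neurons (0.50, SE 0.13, edgeR adjusted p = 0.390), both higher in the pos gate. Over all neurons Itpr3 (-5.42, SE 2.1, on very few reads) and Camk2b (-0.24, SE 0.10) came next, and in excitatory neurons Calm2 (0.33, SE 0.12) and Cbarp (0.48, SE 0.18). In inhibitory neurons Calm2 (0.66, SE 0.19) and Calm3 (0.69, SE 0.21), which encode calmodulin, a calcium sensor that binds the tails of sodium and calcium channels, were among the partners of smallest p, each with an edgeR adjusted p of 0.432.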

How the data were processed

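Single cells of the medial prefrontal cortex were read as deposited counts, whole-number reads per gene and cell in 1 table. Per the labels' protocols the authors dissociated tissue with papain and made Smart-seq2 libraries for Illumina sequencing. Bowtie 0.12.2 and the builds mm8 and mm10 are named, without their roles, in the submitters' processing notes. How reads were then counted per gene was not given in the sources used here. All 3530 cells were kept, and doublets were not called.

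Cells were clustered with scanpy 1.11.5 (2000 variable genes, 30 components, 15 neighbours, Leiden resolution 1) without the channel genes or the reporter. A cluster was named where the mean z of a marker list was at least 1 with 3 or more markers detected in 10% of its cells and at least 1 marker among its 10 leading genes by fold, a rule set after the clusters were seen. Counts were summed per mouse and class, subclass or gate where 10 or more cells were present. Sums were tested with edgeR 4.0.16's quasi-likelihood test (R 4.3.3, TMM scaling, minimum count 10, minimum total 15), and adjusted p-values under 0.05 over all genes were called. DESeq2 1.42.0 and limma 3.58.1 served as alternatives. Per-kb levels used merged exon lengths of GENCODE M21 on GRCm38, which held 40 of 40 channel genes. The labels do not say whether mice were littermates or shared a run, so p-values measure the spread between these mice.

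On simulated counts the gate comparison of all neurons, run on 17431 genes, recovered 90% of 2-fold and 100% of 4-fold changes. Fear-Recall against Context-Only in the pos gate (19840 genes) recovered 3% and 57%, and Fear-Recall against Homecage (19236 genes) 18% and 91%. Changes were planted only in genes above a minimum mean level, which Cacng4, Cacna1i and Cacnb2 among others did not reach. Recovery at lower levels was not measured.

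Mouse numbers of the labels were checked for pairing across conditions. Same-numbered mice correlated at 0.102 to 0.740 over 7 pairs in the pos gate and at 0.193 to 0.683 over 28 pairs in all cells. Differently numbered mice correlated at -0.662 to 0.431 and at -0.606 to 0.466, so the ranges overlapped. Every same-numbered pair was positive, however, while most differently numbered pairs in the pos gate were negative. Values were centred within each condition, so these correlations are not independent of each other. The main fits of conditions left the number out, so differences by number add to their spread. It was fitted as a block in an alternative. Genes are named where they passed, where they were among the 4 of smallest p at 10 CPM or more in a comparison, or where they reached 10 CPM in a subclass, and up to 3 partners are named per gate comparison. The channel genes, the marker and partner lists and the tests were chosen with earlier results of these data known. Results of single genes for some members of the channel and partner lists are not reported here, although the counts include these genes.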

Additional observations from a re-analysis of the deposited data

Results flagged for a closer look

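In sums of all cells of a mouse, 25 genes in 4 conditions were checked for a mouse whose gap to the nearest other mouse of its condition, divided by the range of the condition, passed Dixon's 95% critical value. In 16 of these sets a mouse did, where chance by the definition of that value marks about 1 in 20, and genes of 1 mouse are not independent. No explanation was tested.

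Of these, 6 were in Homecage mouse 4, the sum of 17 cells. It stood at 112.5 CPM for Cacna1b (others 65.6 to 67.8), 37.9 for Cacna1c (others 9.45 to 11.8) and 83.7 for Cacnb1 (others 18.04 to 26.6). It also stood at 258.1 for Cacnb3 (others 65.3 to 90.3), 285.5 for Cacng3 (others 159.1 to 178.97) and 48.2 for Cacng4 (others 15.6 to 21.1).

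Another 6 were in mice numbered 1. Fear-Recall mouse 1 was at 35.6 CPM for Cacna1b (others 57.3 to 59.5), 98.2 for Scn3b (others 34.9 to 49.98) and 100.6 for Scn8a (others 122.7 to 128.96). Fear-Only mouse 1 was at 29.1 for Cacng2 (others 83.7 to 100.02), 32.4 for Hcn3 (others 10.9 to 16.8) and 105.8 for Scn3b (others 25.1 to 47.3).

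The remaining 4 lay in 4 mice. Cacna1h was at 16.99 CPM in Fear-Only mouse 2 (others 3.72 to 5.43) and at 3.08 in Fear-Recall mouse 5 (others 9.20 to 10.5). Cacna2d1 was at 93.002 in Context-Only mouse 2 (others 40.8 to 52.5) and Scn1a at 134.3 in Context-Only mouse 5 (others 66.2 to 83.1).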

How the results depend on the processing

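Of the counts of called channel genes and of levels by subclass, 87 alternatives and every fit without 1 mouse stayed within 1.5 times the main value and 2 alternatives did not: DESeq2 called 5 channel genes between the gates of all neurons, and the test by mouse number called 3 in inhibitory neurons in place of 10. The main count was 0 in the comparisons of gates and of conditions, so most of these agreements set 0 against 0. They say little where few changes could be detected. Leaving out each mouse gave 0 called genes in the other comparisons and 7 to 10 by mouse number. With the mouse number as a replicate block the comparisons of conditions had 0 called genes, and the gate comparisons without their block also had 0, so the block changed no call. Of the log2 differences of named genes, 4 changed sign: Cacng5 (-0.93) and Cacng4 (-0.29) between gates within layer 6 corticothalamic-like cells, Cacna1e (0.0845) between Fear-Recall and Context-Only in inhibitory neurons with each cell scaled to the same total, and Cacnb3 (0.1535, from a range of -0.6759 to 0.1535 over mice left out) between Context-Only and Homecage without Homecage mouse 4. Class ratios changed sign in neg cells only for Cacnb2 (1.25), Hcn3 (0.007) and Scn3a (0.205). For each of these the cause was not tested.

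The test by mouse number and the gate fits within single subclasses were added after seeing the data. Within Vip-like cells 1 mouse had both gates, so that fit was not run. With 2 or 3 mice per condition in the pos gate, 3% of 2-fold changes planted in genes of higher level were recovered on simulated counts. Differences of that size were hardly detectable there.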
